A study of Homo sapiens with 24 samples.

Results

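The enzymes that make serine from a glycolytic intermediate and pass its carbon on to folate were followed in 2 cell lines of human acute myeloid leukemia (AML), which are MV4-11 and KG-1a, during exposure to 8-chloro-adenosine (8CA) or 8-amino-adenosine (8AA). The set comprised 9 genes, PHGDH, PSAT1, PSPH, SHMT1, SHMT2, MTHFD1, MTHFD2, MTHFD1L and ALDH1L2, taken by symbol from the 23354 genes of the deposited read count table. RNA was sequenced from 12 groups of 2 libraries, 24 libraries in all: each line, labelled wild type, was left untreated or given 1 μM 8CA or 1 μM 8AA, and was harvested at 8 h or 24 h. The control cultures are labelled as given no treatment, and each time had controls of its own. MV4-11 and KG-1a are each a line grown from the blasts of 1 person, and the labels do not say whether the libraries A and B of a group came from separate cultures, so the p-values below measure the spread between these libraries, which may be technical.

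Serine is made from 3-phosphoglycerate by PHGDH, PSAT1 and PSPH in turn, and serine hydroxymethyltransferase then splits it into glycine and a one-carbon unit carried by tetrahydrofolate. Mitochondria hold one set of folate enzymes (SHMT2, MTHFD2, MTHFD1L, ALDH1L2) and the cytosol another (SHMT1, MTHFD1), and formate made in mitochondria feeds the cytosolic synthesis of purines and thymidylate. PHGDH, PSAT1, PSPH, SHMT2, MTHFD2, MTHFD1L and ALDH1L2 are known targets of ATF4, the transcription factor of the amino acid response, and leukemic blasts are known for a high demand for serine and formate. 8CA and 8AA are adenosine analogs that carry a chlorine atom or an amino group at the same carbon of the purine ring.

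The stretches of 200 bases that precede the annotated start of 5 of the genes are printed here. These genes stand for the different behaviours described below. At 24 h PSAT1 and MTHFD2 moved in opposite directions under the analogs in both lines. MTHFD1L did so weakly with 8CA, and SHMT1 and MTHFD1 did not. The sequences are those of RefSeq on GRCh38.p14, read 5′ to 3′ on the gene's strand. Capitals mark the letters searched, TGATGNAA (the core of the composite element bound by CEBP and ATF factors), CACGTG (the E-box) and CCAAT, each on both strands, with no overlap between the matches shown.
PSAT1 (chr9:78296925-78297124, plus strand): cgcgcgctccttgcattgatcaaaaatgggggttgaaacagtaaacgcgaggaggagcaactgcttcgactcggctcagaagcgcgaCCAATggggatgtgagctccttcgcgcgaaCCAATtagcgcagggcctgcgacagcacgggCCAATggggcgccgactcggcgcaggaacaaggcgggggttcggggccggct
MTHFD2 (chr2:74198415-74198614, plus strand): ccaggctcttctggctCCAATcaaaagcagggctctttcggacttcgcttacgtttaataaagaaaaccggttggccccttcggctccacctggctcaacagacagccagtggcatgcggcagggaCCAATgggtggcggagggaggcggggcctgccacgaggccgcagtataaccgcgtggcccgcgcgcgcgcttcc
MTHFD1L (chr6:150866286-150866485, plus strand): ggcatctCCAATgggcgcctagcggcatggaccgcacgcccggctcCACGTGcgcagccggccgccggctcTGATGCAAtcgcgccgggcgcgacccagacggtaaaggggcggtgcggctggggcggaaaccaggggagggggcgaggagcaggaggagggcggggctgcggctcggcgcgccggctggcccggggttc
SHMT1 (chr17:18363551-18363750, minus strand): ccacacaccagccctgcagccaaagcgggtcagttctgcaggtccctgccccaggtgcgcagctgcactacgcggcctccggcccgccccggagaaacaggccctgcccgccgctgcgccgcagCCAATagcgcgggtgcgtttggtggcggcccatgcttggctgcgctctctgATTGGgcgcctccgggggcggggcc
MTHFD1 (chr14:64388153-64388352, plus strand): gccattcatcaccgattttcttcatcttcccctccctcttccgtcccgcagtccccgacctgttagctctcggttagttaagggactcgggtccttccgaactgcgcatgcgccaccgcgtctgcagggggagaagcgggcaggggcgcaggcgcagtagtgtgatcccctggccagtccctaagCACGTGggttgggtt

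Promoter windows of 250 bases before to 50 after a start were given for 6 of the 9 genes (PHGDH, PSAT1, SHMT1, MTHFD1, MTHFD2, and MTHFD1L with 4 starts), out of 35116 windows in all. CCAAT was in 8 of the 9 windows of these genes, against 34.6% of all windows. Each of the 6 genes had it, MTHFD1L as 1 site shared by 3 overlapping windows. PSAT1 held 3 copies, at 113, 83 and 52 bases before its start. CACGTG, found in 7.26% of all windows, was in those of MTHFD1 (15 bases before the start) and MTHFD1L. TGATGNAA, found in 3.62% of all windows, was in 3 of the 4 windows of MTHFD1L and in none of the other 5 genes' windows. These 3 windows overlap and hold the same site, 129 bases before the start printed above. The CACGTG of MTHFD1L is likewise a single site in the same 3 windows. A match of letters is a description of the sequence and says nothing about binding.

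The libraries held 18633963 to 24520078 reads counted in genes, and the members had 70 to 15981 reads per library, so that all 9 passed the filter on low counts in every fit. The 2 libraries of KG-1a with 8AA at 24 h stood farther apart than any other pair, with a chi-square over genes of 12.3 per degree of freedom against 1.43 to 5.20 in the other 11 pairs. PTPRC, which marks leukocytes, was at a median of 114 CPM (the usual depth-scaled read count, with library totals adjusted by TMM, edgeR's trimmed-mean normalization) in MV4-11 and 741 CPM in KG-1a. FLT3 stood at 511 and 0.615 CPM, and CD34 at 0.0468 and 397 CPM. The myeloid markers CD33 and SPI1 were at 113 and 258 CPM in MV4-11 and only 0.493 and 6.49 CPM in KG-1a, where the T-cell gene CD3E had a median of 31.6 CPM, so KG-1a's markers went partly against a myeloid label. EPCAM, KRT19, COL1A2, DCN, MS4A1 and HBA1, markers of cells that should be absent, had a median of 0 in both lines. In bulk RNA a loss of cells of one kind and a loss of RNA per cell cannot be told apart. TMM-scaled levels are relative to the other genes of a library. A rise or fall below is thus relative, and a change of all RNA together would not show.

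The untreated lines used the same 9 enzymes at unequal levels. Per kilobase of exon, which allows genes to be compared with each other, MTHFD1, the trifunctional cytosolic enzyme, had the highest level at 24 h in both lines (108 ± 4.32 and 120.2 ± 1.31 CPM per kb in MV4-11 and KG-1a, mean ± SD, n = 2). SHMT2 (103 ± 0.506), PSAT1 (94.6 ± 2.17) and MTHFD2 (94.0 ± 2.84) followed in MV4-11, and the libraries of PSAT1 and MTHFD2 overlapped. KG-1a had MTHFD2 (115 ± 2.13) and PSAT1 (79.0 ± 0.743) next, with SHMT2 at 37.5 ± 0.587. MTHFD1L, PHGDH, PSPH and SHMT1 lay between 7.77 and 26.4 CPM per kb in both lines. ALDH1L2, the mitochondrial enzyme that releases carbon dioxide from 10-formyl-tetrahydrofolate, was lowest in each, at 7.71 and 1.34 CPM per kb.

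ALDH1L2 also separated the untreated lines most widely, 5.73-fold higher in MV4-11 than in KG-1a at 24 h (log2 difference 2.52 ± 0.08, adjusted p = 1.67e-19, quasi-likelihood test of edgeR, Benjamini-Hochberg adjustment over all genes, as for every adjusted p below). SHMT2 was 2.74-fold higher in MV4-11, SHMT1 1.60-fold and PSAT1 1.20-fold. PHGDH, MTHFD2, PSPH and MTHFD1 were lower in MV4-11, with log2 differences of -0.34, -0.29, -0.19 and -0.16. MTHFD1L did not pass the test at 24 h (-0.10, 95% interval -0.21 to 0.00), but did with library size alone (-0.21, adjusted p = 0.000378). The 4 members higher and 4 lower compare with 41% of all genes higher and 41% lower, so the count says little by itself. The PSPH call was lost with no filter on low counts (-0.16, adjusted p = 0.0725) and without untreated MV4-11 library A (-0.13, adjusted p = 0.135) or KG-1a library A (-0.13, adjusted p = 0.136), and that of MTHFD1 without MV4-11 library B (-0.12, adjusted p = 0.111) or KG-1a library A (-0.15, adjusted p = 0.0544). At 8 h the log2 differences of ALDH1L2, SHMT2, SHMT1 and PSAT1 were 2.57, 1.46, 0.63 and 0.24. Those of MTHFD2, MTHFD1, PHGDH and MTHFD1L were -0.44, -0.30, -0.27 and -0.18, all called (4 higher and 4 lower, against 40.1% and 42.1% of all genes), while PSPH was at 0.01 and not called. The MTHFD1L call at 8 h was lost with upper-quartile scaling (-0.10, adjusted p = 0.0568) and with no filter (-0.11, adjusted p = 0.0894).

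Time in culture alone moved the enzymes little. In untreated MV4-11 none of the 9 passed edgeR's test between 8 h and 24 h (5.54% of all genes did), although PHGDH (0.26 ± 0.07, adjusted p = 0.0504) and ALDH1L2 (0.23 ± 0.06, adjusted p = 0.0508) came close, and 3 members (these and PSAT1) had an unadjusted p under 0.05. DESeq2 also called 0 of the 9, while 4 other settings called PHGDH and ALDH1L2 higher. PHGDH was the single member called in untreated KG-1a (0.35 ± 0.07, adjusted p = 0.0103; 2.49% of all genes were called higher), and that call was lost without 8 h library B (0.27, adjusted p = 0.133), 24 h library A (0.36, adjusted p = 0.0848) or 24 h library B (0.34, adjusted p = 0.116).

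**Figure D1:**
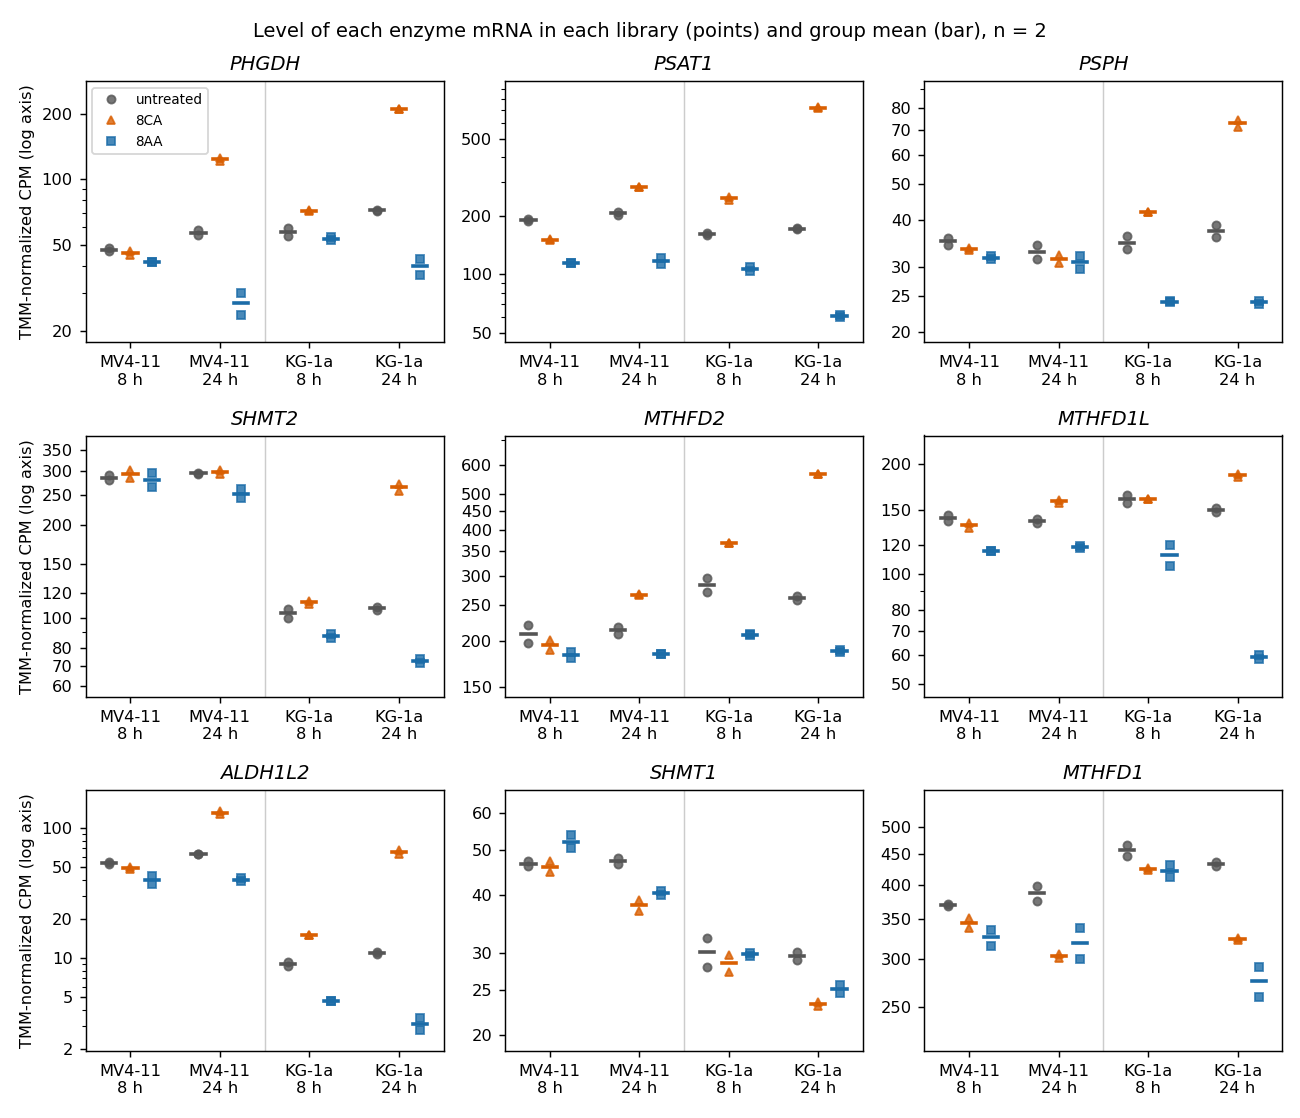
Level of each enzyme mRNA as TMM-normalized CPM on a log axis, 1 panel per gene, with points for the 2 libraries of each group and a bar at their mean. At 24 h in KG-1a the 8CA libraries (triangles) lay above and the 8AA libraries (squares) below the untreated ones (circles) for 7 of the 9 genes, while SHMT1 and MTHFD1 were below untreated with either analog. The share of all genes with either pattern was not counted.

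After 24 h in KG-1a the serine enzymes and the mitochondrial folate enzymes were higher with 8CA and lower with 8AA, as were 5 of these 7 genes in MV4-11 (all but PSPH and SHMT2), and the cytosolic SHMT1 and MTHFD1 were lower with both analogs in both lines. In KG-1a, 7 of the 9 members were higher with 8CA (23.4% of all genes were) and 2 were lower (24%), with a median log2 fold change of 1.11 over the members against 0.01 over all genes tested (up to 0.04 in size in every comparison reported). All 9 were lower there with 8AA (26.6% of all genes were), with a median of -0.65, and all 9 were still called without either of the 2 libraries of that group, the pair that stood apart. MV4-11 had 5 members higher with 8CA (21.2%) and 2 lower (22.7%), and 8 lower with 8AA (15.3%), with medians of 0.16 and -0.25. The 2 members lower with 8CA in each line were near the share of all genes, so that count says little by itself. How many of all genes were higher with 8CA and lower with 8AA, or lower with both, was not counted. Comparisons of the 2 analogs with untreated cells share the untreated libraries, so a low or high untreated library would move both at once, and the direct comparison of 8AA with 8CA is given further on. The gene positions below are those of the deposited table, whose chromosome 1 reaches 249213345, past the last RefSeq gene of GRCh38.p14 at 248937099, so they are of an earlier build than the sequences above (the submitters' notes name hg19 and hg38).

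**Figure D2:**
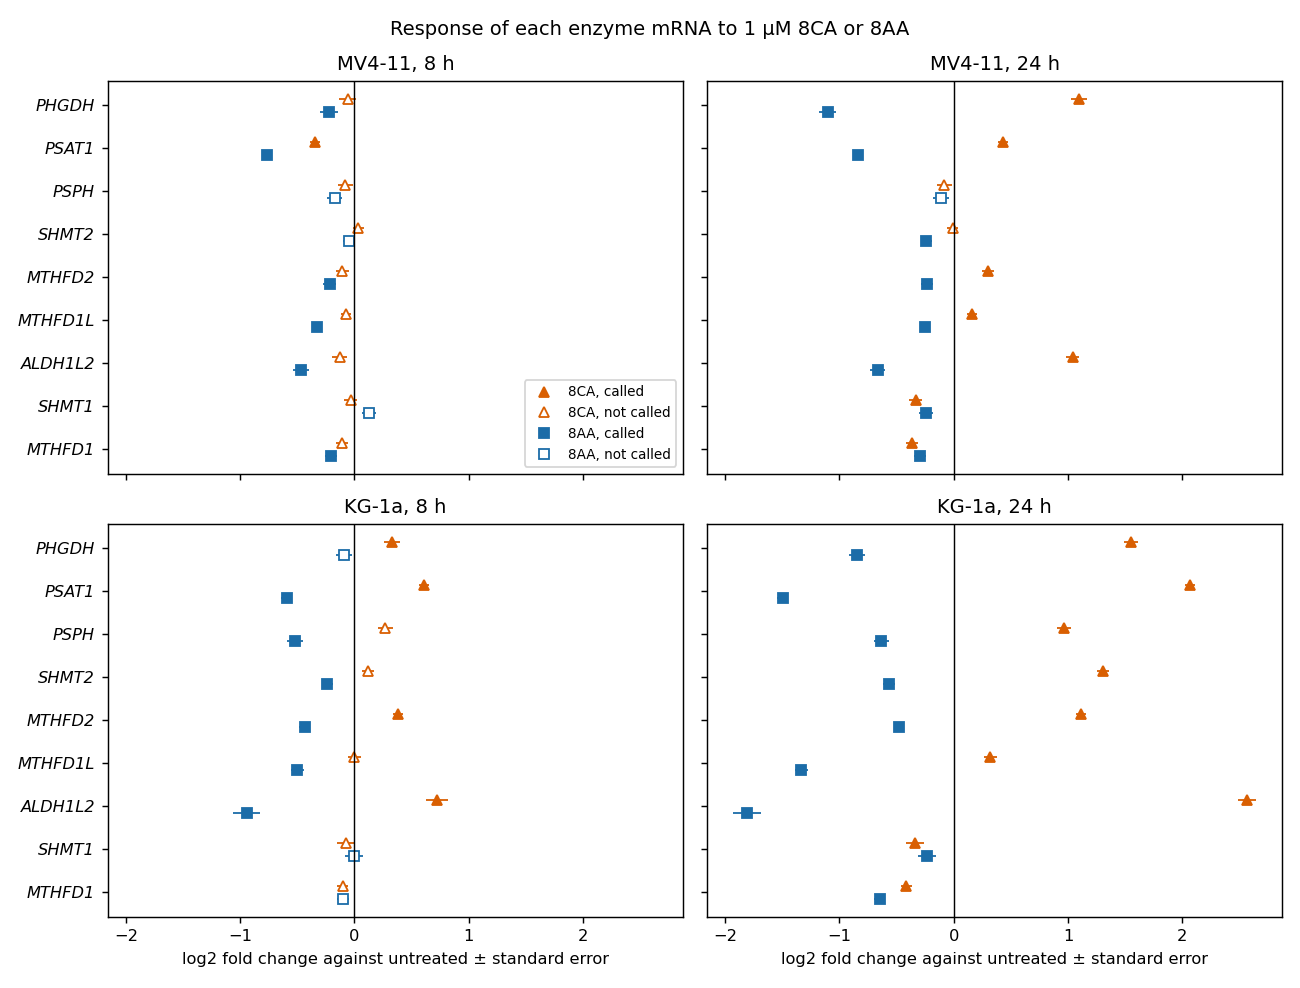
Log2 fold change of each gene against untreated cells of the same line and time, with standard errors, for 8CA (triangles) and 8AA (squares); filled symbols passed the test. The symbols separate most at 24 h in KG-1a, from -1.81 to 2.57 for ALDH1L2, and least there for SHMT1 and MTHFD1.

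PHGDH (chr1:120254419-120286849, plus strand), the NAD-dependent dehydrogenase that commits 3-phosphoglycerate to serine, was the serine enzyme with the widest response in MV4-11. Its 24 h libraries there stood at 55.5 and 58.1 CPM untreated, 121 and 126 CPM with 8CA and 23.8 and 29.9 CPM with 8AA. The 3 groups did not overlap: PHGDH rose 2.14-fold with 8CA (log2 fold change 1.10 ± 0.07, adjusted p = 1.42e-08) and fell 2.15-fold with 8AA (-1.10 ± 0.08, adjusted p = 3.12e-07). KG-1a had 71.4 and 72.3 CPM untreated, 211 and 209.8 CPM with 8CA and 43.0 and 36.5 CPM with 8AA. The gene rose 2.93-fold with 8CA (1.55 ± 0.06, adjusted p = 5.59e-11) and fell 1.80-fold with 8AA (-0.85 ± 0.07, adjusted p = 8.52e-08), again without overlap.

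Little of that was present for PHGDH at 8 h. The MV4-11 libraries were at 46.7 and 48.0 CPM untreated, 46.7 and 44.9 CPM with 8CA and 41.4 and 41.4 CPM with 8AA. The small fall with 8AA (-0.22 ± 0.08, adjusted p = 0.0372) was lost when untreated library A (0.08 as adjusted p), untreated library B (0.122), 8AA library A (0.0792) or 8AA library B (0.119) was left out, and with upper-quartile scaling (0.0822), library size alone (0.0767) or 1 fit of all 24 libraries (0.0666). KG-1a at 8 h had 60.0 and 54.5 CPM untreated against 71.4 and 72.1 CPM with 8CA, a rise (0.33 ± 0.07, adjusted p = 0.0285) that was lost without untreated library A (0.0608), untreated library B (0.226), 8CA library A (0.236) or 8CA library B (0.268). With 8AA the KG-1a difference was -0.09 and did not pass the test (95% interval -0.24 to 0.06).

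PSAT1 (chr9:80912059-80945009, plus strand), the aminotransferase of the second step, had the highest level per kilobase of all 9 members after 24 h of 8CA in both lines, 331 ± 4.29 CPM per kb in KG-1a and 129.6 ± 0.235 in MV4-11. In KG-1a its libraries were at 173 and 171 CPM untreated, 715 and 728 CPM with 8CA and 60.5 and 61.4 CPM with 8AA. That was a 4.20-fold rise (2.07 ± 0.04, adjusted p = 5.96e-14) and a 2.82-fold fall (-1.50 ± 0.05, adjusted p = 1.14e-11), with wide gaps between the groups. The MV4-11 libraries were at 203 and 209 CPM untreated, 282 and 283 CPM with 8CA and 121 and 113 CPM with 8AA, a smaller rise (0.43 ± 0.04, adjusted p = 1.64e-06) and a fall of 1.79-fold (-0.84 ± 0.05, adjusted p = 2.16e-08).

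PSAT1 was also the member whose early response separated the lines most clearly. At 8 h, 8CA took MV4-11 from 192 and 189 down to 151 and 150.4 CPM (-0.35 ± 0.04, adjusted p = 0.000274), the single member called in that comparison, where 5.77% of all genes were called lower and 10.4% in either direction. The same exposure took KG-1a from 159.6 and 164 up to 251 and 242 CPM (0.61 ± 0.04, adjusted p = 7.74e-07). With 8AA the 8 h level was lower in both, at 114 and 115 CPM in MV4-11 (-0.76 ± 0.05, adjusted p = 3.96e-08) and 104 and 109 CPM in KG-1a (-0.59 ± 0.05, adjusted p = 2.1e-07). None of these groups overlapped with its untreated group.

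PSPH (chr7:56078744-56184090, minus strand), the phosphatase that completes serine synthesis, responded in KG-1a and gave no call in MV4-11. The KG-1a libraries at 24 h were at 38.9 and 36.0 CPM untreated, 74.5 and 71.4 CPM with 8CA (0.96 ± 0.06, adjusted p = 8.15e-09) and 24.3 and 23.8 CPM with 8AA (-0.64 ± 0.07, adjusted p = 1.15e-06), so the 3 groups stood clear of each other. In MV4-11 at 24 h the values were 31.4 and 34.2, 30.7 and 32.2 and 29.6 and 32.1 CPM, and the ranges overlapped. The 95% interval of the MV4-11 log2 fold change was -0.23 to 0.06 with 8CA and -0.26 to 0.04 with 8AA. At 8 h in KG-1a the 8AA libraries were already at 24.2 and 24.0 CPM against 33.5 and 36.2 CPM untreated (-0.52 ± 0.07, adjusted p = 2.57e-05), while the 8CA difference (0.27 ± 0.06, adjusted p = 0.0596) missed the threshold. It passed with library size alone (0.0458 as adjusted p), no filter (0.0404), the replicate block (0.0423) or 1 fit of all 24 libraries (0.0331). The span of PSPH in the table holds CCT6A (median 9708 counts) and SUMF2 (2831) on the opposite strand and CHCHD2 (4832) on the same strand, against a median of 705 for PSPH itself, and whether reads were counted by strand is not given in the sources used here. Its counts are uncertain for that reason.

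SHMT2 (chr12:57623356-57628718, plus strand), the mitochondrial enzyme that makes glycine and the one-carbon unit from serine, differed more between the lines than between treatments in MV4-11. Its 24 h libraries in MV4-11 were at 293 and 295 CPM untreated and 292 and 301 CPM with 8CA, overlapping (-0.01, 95% interval -0.12 to 0.10), and at 245 and 261 CPM with 8AA (-0.24 ± 0.05, adjusted p = 0.00224). In KG-1a the level went from 106 and 109 CPM to 272 and 258 CPM with 8CA, a 2.47-fold rise (1.31 ± 0.05, adjusted p = 2.46e-11) to a level just under that of untreated MV4-11. With 8AA it fell to 73.8 and 71.4 CPM (-0.56 ± 0.05, adjusted p = 3.09e-07). At 8 h the single SHMT2 call was the fall with 8AA in KG-1a (-0.24 ± 0.05, adjusted p = 0.00213).

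MTHFD2 (chr2:74425690-74442424, plus strand), the mitochondrial dehydrogenase and cyclohydrolase that carries the one-carbon unit on toward formate, rose and fell with the analogs in both lines. KG-1a libraries at 24 h were at 265 and 259 CPM untreated, 566 and 565 CPM with 8CA (1.11 ± 0.04, adjusted p = 4.35e-11) and 187 and 189 CPM with 8AA (-0.48 ± 0.05, adjusted p = 4.16e-07). The rise was 2.16-fold there and 1.23-fold in MV4-11, which went from 209 and 219 CPM to 266 and 268 CPM (0.30 ± 0.05, adjusted p = 0.000359). MV4-11 with 8AA was at 184 and 185 CPM (-0.23 ± 0.05, adjusted p = 0.00484), a call lost without untreated library B (-0.21, adjusted p = 0.054). At 8 h KG-1a had already moved both ways, from 272 and 296 CPM to 369.5 and 369 CPM with 8CA (0.38 ± 0.04, adjusted p = 0.000251) and 207 and 209 CPM with 8AA (-0.44 ± 0.04, adjusted p = 3.55e-06). The 8 h fall with 8AA in MV4-11 (-0.22 ± 0.06, adjusted p = 0.00726) was lost without untreated library A (-0.14, adjusted p = 0.12) or 8AA library B (-0.18, adjusted p = 0.0684).

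MTHFD1L (chr6:151186815-151423023, plus strand), the mitochondrial synthetase that releases formate, fell with 8AA in both lines and rose by a smaller amount with 8CA. In KG-1a at 24 h the 8AA libraries were at 60.0 and 58.8 CPM against 152 and 148 CPM untreated, a 2.52-fold fall (-1.33 ± 0.06, adjusted p = 2.72e-10), while 8CA gave 185 and 188 CPM (0.32 ± 0.06, adjusted p = 0.00023). The MV4-11 libraries were at 141 and 138 CPM untreated, 157 and 159.8 CPM with 8CA (0.16 ± 0.04, adjusted p = 0.00669) and 119.5 and 118 CPM with 8AA (-0.25 ± 0.04, adjusted p = 0.000494). The groups did not overlap, but the 8CA call in MV4-11 was lost without untreated library B (0.14, adjusted p = 0.0587). The fall with 8AA was present at 8 h in MV4-11 (-0.33 ± 0.04, adjusted p = 5.63e-05) and KG-1a (-0.50 ± 0.06, adjusted p = 8.58e-06), and 8CA gave no call at 8 h (-0.08 and 0.00).

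ALDH1L2 (chr12:105413562-105478341, minus strand) had the largest fold changes of the 9 members in KG-1a, from the lowest counts. Its KG-1a libraries at 24 h were at 10.8 and 11.2 CPM untreated, 62.8 and 67.2 CPM with 8CA and 2.80 and 3.50 CPM with 8AA. The rise was 5.93-fold (2.57 ± 0.08, adjusted p = 2.55e-12) and the fall 3.51-fold (-1.81 ± 0.12, adjusted p = 1.12e-08), and the 8AA value ran from -1.97 to -1.65 as each library was left out in turn. The KG-1a pair with 8CA overlapped the untreated MV4-11 pair (63.1 and 62.8 CPM). MV4-11 itself went to 134 and 128 CPM with 8CA (1.04 ± 0.06, adjusted p = 7.41e-09) and 39.3 and 41.1 CPM with 8AA (-0.67 ± 0.07, adjusted p = 5.52e-06). At 8 h the KG-1a libraries were at 8.72 and 9.38 CPM untreated, 15.0 and 15.0 CPM with 8CA (0.72 ± 0.10, adjusted p = 0.000872) and 4.66 and 4.68 CPM with 8AA (-0.94 ± 0.11, adjusted p = 1.6e-05). MV4-11 at 8 h gave a call with 8AA only (-0.47 ± 0.07, adjusted p = 0.000101), since its 8CA difference was -0.13 (0.24 as adjusted p).

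SHMT1 (chr17:18231187-18266856, minus strand), the cytosolic counterpart of SHMT2, was lower at 24 h with either analog. MV4-11 libraries were at 46.6 and 48.0 CPM untreated, 37.0 and 39.1 CPM with 8CA (-0.33 ± 0.06, adjusted p = 0.00029) and 40.9 and 40.1 CPM with 8AA (-0.24 ± 0.06, adjusted p = 0.00585). Both treated pairs were below the untreated pair. KG-1a libraries were at 29.0 and 30.2 CPM untreated, 23.1 and 23.6 CPM with 8CA (-0.34 ± 0.08, adjusted p = 0.00229) and 25.6 and 24.6 CPM with 8AA (-0.24 ± 0.08, adjusted p = 0.0186). The KG-1a call with 8AA was lost without untreated library B (-0.21, adjusted p = 0.106), with upper-quartile scaling (-0.16, adjusted p = 0.0915), with library size alone (-0.14, adjusted p = 0.134) and in DESeq2 (-0.24, adjusted p = 0.0548). At 8 h no SHMT1 difference from untreated cells passed the test, with values between -0.08 and 0.13. The highest of these, with 8AA in MV4-11, was called higher with upper-quartile scaling (0.17, adjusted p = 0.0324) and with library size alone (0.17, adjusted p = 0.03).

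MTHFD1 (chr14:64854759-64926725, plus strand), which links formate to the cytosolic folate pool, also gave lower levels at 24 h with either analog. Its untreated libraries were at 398 and 376 CPM in MV4-11, where 8CA gave 301 and 307 CPM (-0.37 ± 0.05, adjusted p = 3.89e-05) and 8AA 301 and 338 CPM (-0.30 ± 0.05, adjusted p = 0.000513). KG-1a went from 436 and 429 CPM to 326 and 323 CPM with 8CA (-0.41 ± 0.05, adjusted p = 8.85e-06) and 291 and 260.0 CPM with 8AA (-0.65 ± 0.05, adjusted p = 6.01e-08). At 8 h the fall with 8AA in MV4-11 (-0.21 ± 0.05, adjusted p = 0.00646) was the single call, lost without 8AA library A (-0.17, adjusted p = 0.0537).

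Counted over the 9 members at 8 h, 8CA gave 1 lower in MV4-11 (PSAT1) and 4 higher in KG-1a (PHGDH, PSAT1, MTHFD2 and ALDH1L2), where 0.7% of all genes were called higher and 0.881% in either direction. With 8AA, 6 members were lower in MV4-11 (15.6% of all genes were) and 6 in KG-1a (18%). Some of these calls rested on single libraries, as given above. They were PHGDH with 8CA in KG-1a, and PHGDH, MTHFD1 and MTHFD2 with 8AA in MV4-11. The member medians in MV4-11 were -0.08 for 8CA and -0.22 for 8AA, those in KG-1a 0.27 and -0.44 in the same order, while those over all genes were at most 0.01 in size.

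The analogs were then compared directly, at 1 μM each, in the same line and at the same time, over 36 pairs of values (9 genes in 4 settings). At 24 h in KG-1a, 8 members were lower with 8AA than with 8CA (21.7% of all genes were). ALDH1L2 differed 20.8-fold (log2 difference -4.38 ± 0.10, adjusted p = 2.16e-14), PSAT1 11.8-fold (-3.57 ± 0.05, adjusted p = 5.06e-17) and PHGDH 5.29-fold (-2.40 ± 0.07, adjusted p = 1.84e-13). SHMT2, MTHFD1L, PSPH and MTHFD2 followed with log2 differences of -1.87 ± 0.05, -1.65 ± 0.06, -1.60 ± 0.06 and -1.59 ± 0.05. MTHFD1 was lower by a small amount (-0.23 ± 0.05, adjusted p = 0.00176), and SHMT1 did not pass the test (0.10, 95% interval -0.06 to 0.27).

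In MV4-11 at 24 h, 6 members were lower with 8AA than with 8CA (9.48% of all genes were). PHGDH differed 4.60-fold (-2.20 ± 0.08, adjusted p = 2.9e-11), ALDH1L2 3.26-fold (-1.71 ± 0.06, adjusted p = 5.44e-11) and PSAT1 2.41-fold (-1.27 ± 0.04, adjusted p = 3.12e-11). MTHFD2 (-0.53 ± 0.05), MTHFD1L (-0.41 ± 0.04) and SHMT2 (-0.23 ± 0.05) had smaller differences that also passed. For PSPH, SHMT1 and MTHFD1 the 95% intervals were -0.17 to 0.12, -0.04 to 0.22 and -0.04 to 0.18, and none of these 3 passed the test.

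At 8 h the difference between the analogs was already broad in KG-1a, with 7 members lower with 8AA (15.8% of all genes were), led by ALDH1L2 (-1.67 ± 0.10, adjusted p = 2.25e-08), PSAT1 (-1.20 ± 0.04, adjusted p = 8.61e-11) and MTHFD2 (-0.82 ± 0.04, adjusted p = 4.15e-09). PSPH, MTHFD1L, PHGDH and SHMT2 differed by -0.79 ± 0.07, -0.50 ± 0.06, -0.42 ± 0.07 and -0.35 ± 0.05. SHMT1 and MTHFD1 were not called (95% intervals -0.09 to 0.23 and -0.11 to 0.11). MV4-11 had 3 members lower at 8 h (3.7% of all genes were), PSAT1 (-0.42 ± 0.05, adjusted p = 8.38e-05), MTHFD1L (-0.25 ± 0.04, adjusted p = 0.00284) and ALDH1L2 (-0.34 ± 0.07, adjusted p = 0.00675). SHMT1 was at 0.16 there (95% interval 0.04 to 0.28, adjusted p = 0.115) and was not called. The ALDH1L2 call was lost without 8CA library B (-0.31, adjusted p = 0.0641) or 8AA library B (-0.22, adjusted p = 0.0972).

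**Figure D3:**
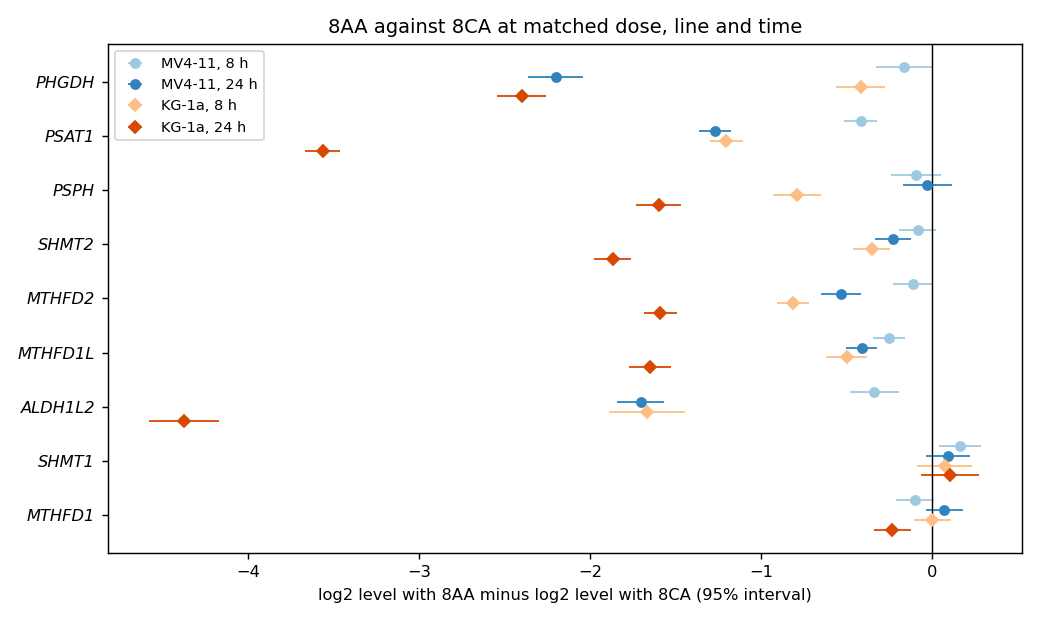
Log2 level with 8AA minus log2 level with 8CA for each gene in each line and time, with 95% intervals. The 24 h values in KG-1a reach -4.38 for ALDH1L2 and -3.57 for PSAT1, while SHMT1 lies between 0.07 and 0.16 in the 4 settings and was called in none.

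The change of each response from 8 h to 24 h was tested as a difference of differences. With 8CA in KG-1a, 7 members had a higher response at 24 h (11.2% of all genes did) and MTHFD1 a lower one (-0.31 ± 0.07, adjusted p = 0.00534; 12.7%). ALDH1L2 gained 1.84, PSAT1 1.46, PHGDH 1.22, SHMT2 1.19, MTHFD2 0.73, PSPH 0.70 and MTHFD1L 0.32 log2 units. The MTHFD1L gain was lost without the untreated 8 h library A (0.26, adjusted p = 0.0541), and the SHMT1 value (-0.26 ± 0.11, adjusted p = 0.0976) passed the test in that setting only (-0.39, adjusted p = 0.0241).

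In MV4-11 the 8CA response gained in 5 members (6.48% of all genes), ALDH1L2 (1.17), PHGDH (1.16), PSAT1 (0.78), MTHFD2 (0.41) and MTHFD1L (0.24), and dropped in SHMT1 (-0.30) and MTHFD1 (-0.26; 9.83% of all genes). The MTHFD1L gain was lost without untreated 24 h library B (0.0548 as adjusted p). Leaving out single libraries ended the SHMT1 call in 5 of 8 cases (untreated 8 h A and B, untreated 24 h B, 8CA 8 h B or 8CA 24 h A, at most 0.114 as adjusted p), as did DESeq2 (0.0868), and that of MTHFD1 in 6 of 8 (every one but 8CA 8 h A and untreated 24 h B, at most 0.119).

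The 8AA response deepened in 6 members of KG-1a between the times (10.7% of all genes were lower). PSAT1 dropped a further -0.90, ALDH1L2 -0.87, MTHFD1L -0.83, PHGDH -0.76, MTHFD1 -0.55 and SHMT2 -0.33 on the log2 scale. MTHFD2 (-0.04, 95% interval -0.18 to 0.09) and PSPH (-0.12, -0.31 to 0.08) were not called, and SHMT1 (-0.23) passed only without untreated 8 h library A (-0.36, adjusted p = 0.0427). In MV4-11 only PHGDH (-0.88 ± 0.11, adjusted p = 0.000773) and SHMT1 (-0.37 ± 0.08, adjusted p = 0.0201) were called (2.12% of all genes were lower), and the SHMT1 call was lost without untreated 8 h library A or B, untreated 24 h library B, 8AA 8 h library B, or 8AA 24 h library A or B, at most 0.0927 as adjusted p.

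The lines differed in the size of these responses. At 24 h the 8CA response was lower in MV4-11 than in KG-1a for 6 members (5.44% of all genes), by -1.61 ± 0.06 for PSAT1 (4.93e-15 as adjusted p), -1.51 ± 0.10 for ALDH1L2, -1.30 ± 0.07 for SHMT2, -1.02 ± 0.09 for PSPH, -0.79 ± 0.07 for MTHFD2 and -0.43 ± 0.10 for PHGDH. The intervals of the other members were -0.17 to 0.23 for SHMT1, -0.09 to 0.23 for MTHFD1 and -0.28 to 0.01 for MTHFD1L. With 8AA at 24 h, 7 members had a higher response in MV4-11, that is a smaller fall (13.8% of all genes were higher), led by ALDH1L2 (1.16 ± 0.14, adjusted p = 1.41e-06), MTHFD1L (1.10 ± 0.07, adjusted p = 5.43e-10) and PSAT1 (0.68 ± 0.06, adjusted p = 3.88e-08). PSPH, MTHFD1, SHMT2 and MTHFD2 differed by 0.55, 0.37, 0.35 and 0.26, and the MTHFD2 call was lost without KG-1a 8AA library B (0.19, adjusted p = 0.0734), with library size alone (0.0557 as adjusted p) and with no filter (0.055). PHGDH was not called (-0.23 ± 0.11, adjusted p = 0.137) but would be without 8AA library B of MV4-11 (-0.41, adjusted p = 0.00963) or of KG-1a (-0.42, adjusted p = 0.00398), as it would with library size alone (0.0425 as adjusted p), no filter (0.0154) or at least 10 counts in every library (0.0461).

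The early line difference with 8CA was confined among the members called to PSAT1 (-0.95 ± 0.06, adjusted p = 9.53e-10), ALDH1L2 (-0.84 ± 0.11, adjusted p = 0.000122) and MTHFD2 (-0.47 ± 0.07, adjusted p = 0.000419), each lower in MV4-11, as were 0.726% of all genes. PHGDH was also called with no filter (-0.39, adjusted p = 0.00823), and PSPH with at least 10 counts in every library (-0.34, adjusted p = 0.0434). With 8AA at 8 h the responses of ALDH1L2 (0.52 ± 0.13, adjusted p = 0.0115), PSPH (0.39 ± 0.09, adjusted p = 0.00777) and MTHFD2 (0.26 ± 0.07, adjusted p = 0.0188) were higher in MV4-11 (7.49% of all genes were). All 3 of these calls rested on single libraries. KG-1a untreated library B ended each of them when left out (PSPH 0.0521, ALDH1L2 0.0737 and MTHFD2 0.125 as adjusted p). KG-1a 8AA library A or B ended those of ALDH1L2 and MTHFD2 (at most 0.0623), and MV4-11 8AA library A (0.0725) or untreated library B (0.135) that of MTHFD2. Without a filter PSPH (0.0588) and MTHFD2 (0.0983) were not called, nor was MTHFD2 with library size alone (0.0528). Calls were gained by SHMT2 without MV4-11 8AA library A or KG-1a untreated library B (at most 0.0443 as adjusted p), by MTHFD1L without KG-1a 8AA library A (0.00668), and by PSAT1, as lower in MV4-11, with at least 10 counts in every library (-0.18, adjusted p = 0.0472).

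Mitochondrial and cytosolic enzymes of related reactions were also set against each other. The ratio of SHMT2 to SHMT1, each per kilobase, was 4.79 and 4.87 in the untreated KG-1a libraries at 24 h, 14.6 and 15.7 after 8CA and 3.84 and 3.86 after 8AA. In MV4-11 it was 8.21 and 8.39, 10.2 and 10.5 and 7.97 and 8.68, so that only the 8CA pair stood clear of the untreated one. The ratio of MTHFD2 to MTHFD1 in KG-1a was 0.952 and 0.963 in the untreated libraries, 2.75 and 2.77 in those given 8CA and 1.02 and 1.15 in those given 8AA. MV4-11 had 0.832 and 0.919 untreated and 1.38 and 1.40 with 8CA, against 0.865 and 0.969 with 8AA, which overlapped with untreated. At 8 h the MTHFD2 to MTHFD1 ratio was already 1.37 and 1.38 with 8CA in KG-1a against 0.923 and 1.05 untreated, and 8AA gave 0.760 and 0.803, below untreated at that time where the 24 h pair was above. The ratios were set side by side with no test of their own.

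**Figure D4:**
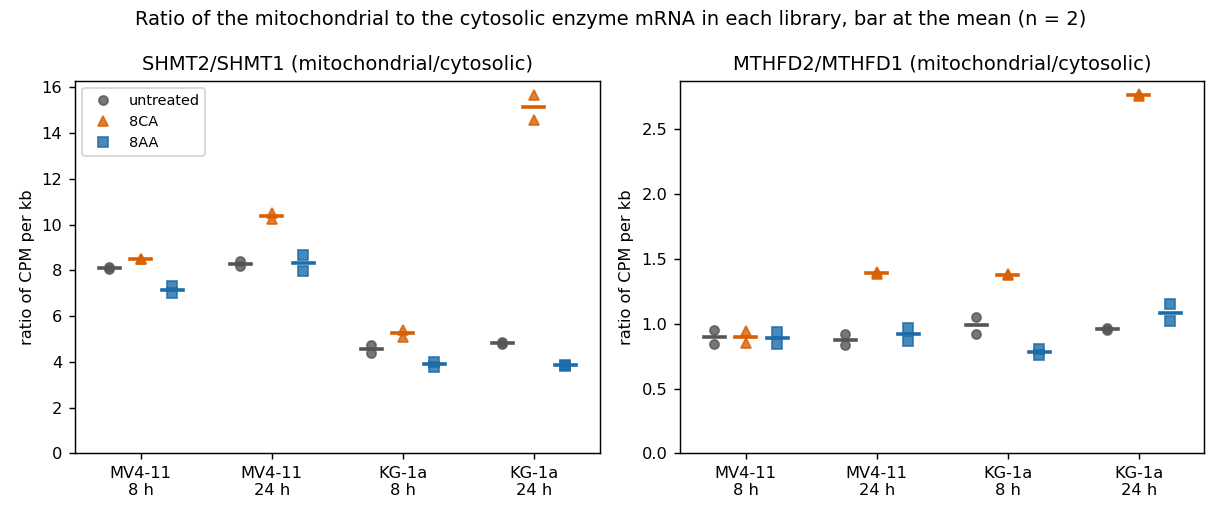
Ratio of the mitochondrial to the cytosolic enzyme mRNA (CPM per kilobase) in each library, with a bar at the mean of 2. The KG-1a 8CA libraries at 24 h lie at 14.6 and 15.7 for SHMT2 over SHMT1 and 2.75 and 2.77 for MTHFD2 over MTHFD1, above every other group.

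Across all 24 libraries, with the mean of each line removed, the members fell into profiles that were alike and profiles that were not. These correlations of log2 CPM are descriptions, since the libraries share the 2 lines and the same few treatment groups. ALDH1L2 and PSAT1 had Pearson's r = 0.98, MTHFD2 and ALDH1L2 0.98, and SHMT2 and PSPH 0.95. SHMT1 and MTHFD1 had r = 0.69 with each other, and SHMT1 had -0.36 with PSAT1. MTHFD1L lay between, with r = 0.84 to PSAT1 and 0.55 to MTHFD1.

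**Figure D5:**
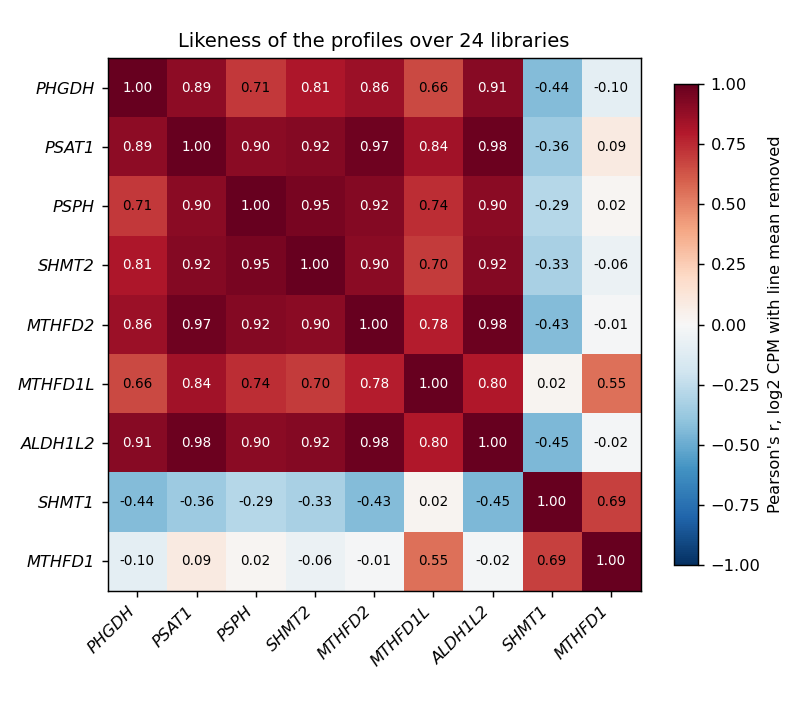
Pearson's r between the profiles of the 9 genes over 24 libraries (log2 CPM with the mean of each line removed). A block of 6 serine and mitochondrial genes holds values from 0.71 to 0.98, while SHMT1 has r between -0.45 and -0.29 with those 6.

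Among 14054 other genes, the one most like PSAT1 was AARS, the alanyl-tRNA synthetase (r = 0.987), and the one most like ALDH1L2 was CARS, the cysteinyl-tRNA synthetase (0.986). The tryptophanyl- and isoleucyl-tRNA synthetases WARS and IARS were most like SHMT2 (0.979) and MTHFD1L (0.975). CSNK1A1, a casein kinase, was most like MTHFD2 (0.978), TXLNA most like PSPH (0.960) and JDP2, a repressor of the AP-1 family, most like PHGDH (0.950). DNAAF5 (0.977) and CSRP1 (0.937) were most like MTHFD1 and SHMT1. The mean profile of the 9 members was most like those of AARS (0.988), GARS (0.983), MARS (0.979), EPRS (0.968) and GPT2 (0.967), the first 4 of which are aminoacyl-tRNA synthetases. Of the 100 genes most like each, 5 were other members for PSAT1, MTHFD2 and ALDH1L2 and 4 for PHGDH, PSPH and SHMT2, but 0 for SHMT1, MTHFD1 and MTHFD1L.

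Among the remaining folate and one-carbon genes more were lower than higher in each of the 4 comparisons with untreated cells at 24 h. Of 27 tested in KG-1a at 24 h, 3 were higher and 11 lower with 8CA (median -0.02), against 23.4% and 24% of all genes, and 5 higher and 16 lower with 8AA (-0.20), against 25.4% and 26.6%. Of 26 in MV4-11, 5 were higher and 9 lower with 8CA (-0.15), against 21.2% and 22.7% of all genes, and 3 higher and 6 lower with 8AA (-0.04), against 13.9% and 15.3%. SLC19A1, the reduced folate carrier, fell in all 4 of these comparisons, with log2 fold changes of -0.36 (8CA) and -0.17 (8AA) for MV4-11, then -0.50 (8CA) and -0.95 (8AA) for KG-1a. ATIC, which closes the purine ring with a folate-borne carbon, was at -0.15, -0.19, -0.33 and -0.68 in the same order. AMT, the aminomethyltransferase of glycine cleavage, rose in all 4 (0.85, 0.80, 0.72 and 1.17).

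Genes of serine and glycine transport and use were mixed. With 8CA at 24 h, 7 of 25 tested were higher and 6 lower in MV4-11, and 11 of 24 higher and 5 lower in KG-1a. With 8AA, 2 were higher and 7 lower in MV4-11, and 6 higher and 10 lower in KG-1a. The shares over all genes are those just given. The MV4-11 counts with 8CA were near them, as were the KG-1a counts lower with 8CA and higher with 8AA. SFXN1, the serine carrier of the mitochondrial membrane, fell in all 4 comparisons (-0.62 and -0.51 in MV4-11, -0.54 and -0.60 in KG-1a), and so did its relative SFXN2 (-0.73, -0.25, -0.54 and -0.74). SDSL, a relative of serine dehydratase, rose with both analogs in MV4-11 (1.07 and 1.07), and GLYCTK, glycerate kinase (0.41 and 0.74) and SERINC1, a serine incorporator family member (0.61 and 0.54) did so in KG-1a.

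The list of ATF4 and its targets outside serine and folate metabolism was mostly higher with 8CA and lower with 8AA at 24 h. Of 21 tested in KG-1a at 24 h, 19 were higher and 1 lower with 8CA (median 1.77), and 1 higher and 19 lower with 8AA (-0.70). Of 22 in MV4-11, 14 were higher and 1 lower with 8CA (0.39), and 0 higher and 15 lower with 8AA (-0.41), where the same shares of all genes apply. At 8 h with 8CA the list had 12 higher and 0 lower in KG-1a (0.7% of all genes were higher) and 0 higher and 5 lower in MV4-11 (5.77% were lower), where PSAT1 was higher and lower in turn. ATF4 itself, named after its values were seen, was at 1.12 ± 0.06, adjusted p = 1.33e-09 with 8CA and -0.72 ± 0.06, adjusted p = 1.21e-07 with 8AA in KG-1a at 24 h, and at 0.59 ± 0.05, adjusted p = 1.59e-07 and -0.33 ± 0.05, adjusted p = 0.000126 in MV4-11. With 8CA at 8 h ATF4 was not lower in MV4-11, unlike the 5 genes of the list. It had 6462 and 7136 reads there untreated and 8031 and 7267 with 8CA, not scaled for depth. In KG-1a at 8 h it had 6364 and 6919 reads untreated and 11727 and 10421 with 8CA. At 24 h ALDH18A1, the proline synthesis enzyme of the list, fell in all 4 comparisons (-0.39, -0.19, -0.59 and -0.63). DDIT3, a stress transcription factor, was higher at that time with both analogs in KG-1a (2.41 and 0.89).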

How the data were processed

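Total RNA of the AML lines MV4-11 and KG-1a (2 libraries in each of 12 groups) was sequenced, and the authors deposited 1 table of raw read counts per gene. The submitters' processing notes name Trimmomatic, STAR 2.6.0, HTSeq 0.11.1 and edgeR, and the builds hg19 and hg38 without their roles. Counting by strand is not given in the sources used here, and HTSeq by default leaves out reads shared with overlapping genes or pseudogenes (GENCODE 29 lists 4 pseudogenes of PSAT1, 7 of MTHFD2 and 1 each of PSPH, SHMT1 and MTHFD1), which can lower a gene's level.

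Counts were tested in R 4.3.3 with edgeR 4.0.16 (glmQLFit, glmQLFTest), TMM scaling, filterByExpr with a minimum count of 10, and Benjamini-Hochberg adjustment over all genes tested (12800 in MV4-11, 12711 in KG-1a), called at 0.05, in 1 fit of 12 libraries per line. Differences between lines used 1 fit of all 24 libraries (14055 genes). Levels are TMM-scaled CPM, also per kilobase of exon length, and the profiles are log2 CPM with a prior count of 2. The scripts were tested on simulated counts.

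The members and the 3 gene lists were chosen with earlier results of these data known, so their counts are not independent evidence. All 9 members are named. The result of 1 gene that the rule below names is not reported here. Of each other list the text names up to 3 genes per direction with the largest change among those called alike in all 4 comparisons at 24 h, or, if there were none, in both drugs of a line. Alternatives were other scalings and filters, DESeq2 1.42.0, the letters A and B as a block, a fold threshold, 1 fit for all libraries and leaving out each library. Over all genes tested, differences of A and B correlated between groups at -0.08 to 0.12 (15 pairs of groups per line). These low values do not settle whether the letters pair the libraries, and the block raised several counts over all genes, as given below.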

Additional observations from a re-analysis of the deposited data

Results flagged for a closer look

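The results listed here were singled out because the same drug comparison gave different effects at the 2 times or in the 2 lines, by edgeR's test of the difference itself; no group had enough libraries to look for an outlying one. All values are log2 differences. Each had an adjusted p under 0.05, and the libraries whose omission ended a call are named in the results above.

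Between 8 h and 24 h the response to 8CA in MV4-11 changed by 1.16 for PHGDH, 0.78 for PSAT1, 0.41 for MTHFD2, 0.24 for MTHFD1L, 1.17 for ALDH1L2, -0.30 for SHMT1 and -0.26 for MTHFD1. In KG-1a it changed by 1.22 for PHGDH, 1.46 for PSAT1, 0.70 for PSPH, 1.19 for SHMT2, 0.73 for MTHFD2, 0.32 for MTHFD1L, 1.84 for ALDH1L2 and -0.31 for MTHFD1. The response to 8AA changed by -0.88 for PHGDH and -0.37 for SHMT1 in MV4-11. In KG-1a it changed by -0.76 for PHGDH, -0.90 for PSAT1, -0.33 for SHMT2, -0.55 for MTHFD1, -0.83 for MTHFD1L and -0.87 for ALDH1L2.

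For the response in MV4-11 minus that in KG-1a, 8CA at 8 h gave -0.95 for PSAT1, -0.47 for MTHFD2 and -0.84 for ALDH1L2. At 24 h it gave -0.43 for PHGDH, -1.61 for PSAT1, -1.02 for PSPH, -1.30 for SHMT2, -0.79 for MTHFD2 and -1.51 for ALDH1L2. With 8AA the difference at 8 h was 0.39 for PSPH, 0.26 for MTHFD2 and 0.52 for ALDH1L2. By 24 h it was 0.68 for PSAT1, 0.55 for PSPH, 0.35 for SHMT2, 0.37 for MTHFD1, 0.26 for MTHFD2, 1.10 for MTHFD1L and 1.16 for ALDH1L2.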

How the results depend on the processing

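No called value changed its direction under any alternative. Among 2736 values of single members, 68 had another sign while uncalled in both settings, and the largest of these was 0.11 in size. Asking for a log2 change of at least 0.5 left 0 members called for 8CA in MV4-11 at 8 h (1.23% of all genes), 1 for 8AA at 8 h (6.31%), 2 for 8CA at 24 h (11.4%), 3 for 8AA at 24 h (6.09%), and 2 for 8CA in KG-1a at 8 h (0.22%). Between 8 h and 24 h in untreated MV4-11, 2 members (PHGDH and ALDH1L2) were called with upper-quartile scaling, library size alone, no filter, or the replicate block, against 0 otherwise, and PSPH gained a call with the block for 8AA in MV4-11 and 8CA in KG-1a at 8 h (0.0448 and 0.0423 as adjusted p), as did SHMT2 for the 24 h minus 8 h response to 8AA in MV4-11 (0.0319). The block changed no other member's call. With no filter, 1 member was called for the line difference with 8AA at 8 h. Leaving out 1 library each gave 1 to 2 members called for the change of the MV4-11 8AA response with time, 1 to 3 for the line difference with 8AA at 8 h and 0 to 1 for untreated KG-1a over time. The cause was not tested. With library size alone the median of all genes was 0.11 for 8AA in KG-1a at 24 h, against 0.01 with TMM. Between the untreated lines at 24 h it was -0.11, against 0.0001 with TMM. Over all genes, 112 were called for 8CA in KG-1a at 8 h against 272 without a filter, 205 with the block and 184 in 1 fit. For 8AA against 8CA in MV4-11 at 8 h the 853 calls became 1369 with the block and 556 in DESeq2. The 593 calls of the time change with 8AA in MV4-11 became 952 without a filter and 1123 with the block, the 162 of the line difference with 8CA at 8 h became 246 without a filter, the 709 of untreated MV4-11 over time became 1122 without a filter, 1321 with the block and 469 in DESeq2, and the 566 of untreated KG-1a over time became 936 without a filter. Leaving out 1 library, which also leaves fewer degrees of freedom, moved the count over all genes by more than 1.5 times in 16 of the 24 comparisons, given here as the count with all libraries and, in parentheses, the range without 1. For 8CA at 8 h it was 1325 (576 to 774) in MV4-11 and 112 (28 to 37) in KG-1a, and for 8AA 3726 (2293 to 2833) in MV4-11 at 24 h and 4415 (2841 to 3265) in KG-1a at 8 h. For 8AA against 8CA it was 853 (365 to 468) and 2716 (1167 to 1845) in MV4-11 at 8 h and 24 h and 3868 (2237 to 2386) in KG-1a at 8 h. The time changes had 2088 (1166 to 1814) and 3036 (2015 to 2413) with 8CA and 593 (136 to 445) and 2330 (1358 to 3981) with 8AA, in MV4-11 and KG-1a in turn, and 709 (153 to 287) and 566 (60 to 209) in untreated cells. The line differences had 162 (82 to 117) and 1574 (1008 to 1148) with 8CA at 8 h and 24 h, and 1559 (969 to 1299) with 8AA at 8 h. ALDH1L2 in KG-1a with 8AA rests on few reads, which limits its precision.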

Other observations

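SLC6A9, the glycine transporter GLYT1 and a gene of the serine and glycine list, was named after its values were seen. It had 16 and 14 reads in the untreated KG-1a libraries at 24 h, 256 and 237 in the libraries given 8CA, and 0 and 1 in those given 8AA. In MV4-11 at 24 h it had 19 and 23 reads untreated, 142 and 121 after 8CA, and 17 and 20 after 8AA, so that its 8AA libraries stood at or near the untreated counts there. Its log2 fold change with 8CA was 3.91 ± 0.23, adjusted p = 3.44e-09 in KG-1a and 2.49 ± 0.25, adjusted p = 1.81e-06 in MV4-11, by edgeR's quasi-likelihood test.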
